A study of Mus musculus with 4 samples.

Results

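The genes described are Foxp3 and 9 further genes of regulatory T cells (Treg), followed in stimulated CD4 T cells of mice with and without the microRNA miR-146a. Members were all probe sets of the Affymetrix Mouse Genome 430 2.0 array whose single gene symbol is Foxp3, Ikzf2, Ikzf4, Lrrc32, Nrp1, Gpr83, Itgae, Capg, Klrg1 or Tgfb1, near background or not. This gave 20 of the 45037 non-control probe sets, for 9 of the 10 genes; under the symbol Lrrc32 no probe set was named in the annotation used. All cells carried the 2D2 transgene, which gives T cells a receptor for a myelin oligodendrocyte glycoprotein peptide. One group was wildtype and the other miR-146a-deficient on that background, with 2 arrays each, called biological replicates in the labels. In both groups naive CD4 T cells had been sorted and cultured for 3 days on plate-bound anti-CD3 (5 µg/ml) with anti-CD28 (1 µg/ml). Added cytokines, the animals' age and sex, the way the deletion was made and whether replicates came from separate mice are not given in the sources used here. P-values therefore measure only the spread between these arrays.

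Treg cells are CD4 T cells that restrain immune responses, and the transcription factor Foxp3 defines them. Many of their surface and regulatory genes are also induced, at least for a time, when conventional CD4 T cells are activated, and several are used by other leukocytes. TGF-beta together with T cell receptor and IL-2 signals can induce Foxp3 in naive CD4 T cells. miR-146a is abundant in Treg cells and is known to restrain NF-kB signalling.

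The microRNA that separates the groups is shown beside its relative miR-146b, since both carry the same seed (bases 2 to 8, in capitals), by which target transcripts are recognised. The sequences are those of RefSeq on GRCm38.p6, at chr11:43374435-43374456 on the minus strand for miR-146a and chr19:46342790-46342811 on the plus strand for miR-146b.
mmu-miR-146a-5p: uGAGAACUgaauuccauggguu
mmu-miR-146b-5p: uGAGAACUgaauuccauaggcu
Counted from the 5′ end, they share 20 of 22 bases and differ by G18A and U21C from miR-146a to miR-146b, both outside the seed. The annotation used names no probe set for either microRNA, so neither the deletion nor miR-146b was measured.

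None of the Treg genes passed the test between genotypes. Values are MAS5 signals, linear intensities summarised over the probes of a probe set and scaled per array by the authors. A change is the difference of group means of log2(signal + 14.7), deficient minus wildtype, with its SE; the added constant shrinks the change of dim probe sets. In limma's moderated test of 12821 genes, each by its brightest probe set, 0 of 8 members tested passed an adjusted p of 0.05 (Benjamini-Hochberg), where 0.179% of all genes did, and 1 of 8 had an unadjusted p below 0.05, where 5.26% did. Their adjusted p ran from 0.909 to 0.993. In a second fit of all 45037 probe sets 0 of the 20 passed, where 0.00888% did, and 1 of 20 had an unadjusted p below 0.05, where 5.34% did. SE, intervals and adjusted p of single member probe sets below come from this second fit. Those of genes on the other lists come from the gene fit, unless the fit of all probe sets is named.

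The arrays were alike over all genes, with r across genes from 0.984 to 0.986 for array pairs. The median signal of an array was 57.7 and 50.2 in wildtype and 51.4 and 48.7 in deficient cells. Of 8 T cell markers listed, the 6 with a probe set, Cd3d, Cd4 and Cd28 among them, all lay above the filter, with changes from -0.16 to 0.10. The 11 B cell markers with a probe set summed to 4746 and 6936 in wildtype and to 13469 and 13947 in the deficient arrays. All 10 tested lay higher, and 3 of them, Blnk, Ms4a1 and Cd22, passed. Pax5 lay below the filter on dim genes (a signal of about 29.9). In bulk samples such as these fewer cells of a type and less RNA per cell cannot be told apart.

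Foxp3 signal was dim on all 4 arrays, with a mean below the filter. Its single probe set read 34.0 and 5.10 in wildtype and 9.78 and 34.9 in the deficient arrays. One array of each genotype was high and the other low, so the groups overlapped fully. On the log2 scale used, the wildtype arrays differed by 1.30 and the deficient arrays by 1.02, against a change between genotypes of 0.16 ± 0.56. The 95% interval of that change, -1.18 to 1.51, includes both a halving and a doubling of the scaled value. Without wildtype replicate 2 the change was -0.48 and without wildtype replicate 1 it was 0.81, so its direction rests on single arrays. Of the 9 genes with a probe set, Foxp3 was the 1 with none past the filter.

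**Figure D1:**
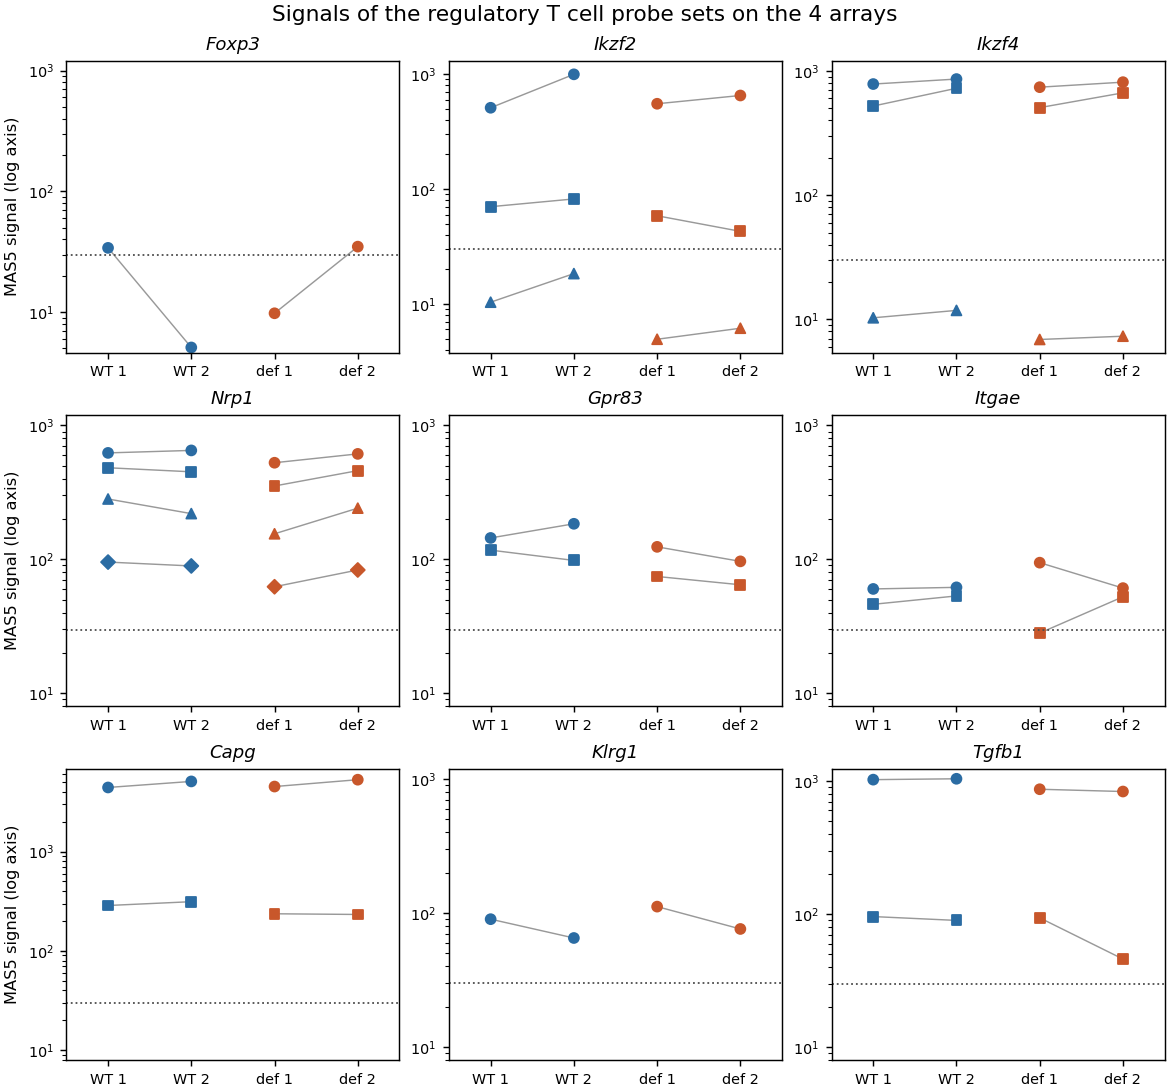
MAS5 signal (log axis) of each member probe set on the 4 arrays, wildtype (WT, blue) and miR-146a-deficient (def, orange), with marker shapes for the probe sets of a gene, grey lines joining replicate arrays and a dotted line at the filter signal of 29.9. Foxp3 has 1 array of each genotype just above the line and 1 below it, both Gpr83 probe sets are lower on both deficient arrays, and wildtype replicate 2 stands high for the brightest Ikzf2 probe set.

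The zinc finger factors Helios and Eos, encoded by Ikzf2 and Ikzf4, are partners of Foxp3 in Treg cells. The brightest Ikzf2 probe set read 509 and 995 in wildtype and 552 and 651 in the deficient arrays. The deficient pair lay inside the wildtype range, and wildtype replicate 2 alone was high. The change was -0.24 ± 0.29 (95% interval -0.93 to 0.44), smaller than the gap of 0.95 between the wildtype arrays. Without wildtype replicate 1 the gene fit gave -0.72 (adjusted p = 0.0681, limma), and without wildtype replicate 2 the sign turned, to 0.23. A dimmer Ikzf2 probe set read 70.2 and 82.0 against 58.5 and 42.8, and the dimmest, below the filter, 10.4 and 18.4 against 4.93 and 6.15. Both were lower on both deficient arrays, by 0.48 ± 0.35 and 0.51 ± 0.28, and neither passed (adjusted p = 0.950 for each).

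For Ikzf4 the arrays of both genotypes were interleaved on its pair of brighter probe sets. The brightest read 784 and 860.0 in wildtype against 739.9 and 812 in the deficient arrays, a change of -0.08 ± 0.11 with an interval of -0.35 to 0.18. The next read 522 and 725 against 507 and 666, a change of -0.08 ± 0.20. After median centring of the arrays both changes were at 0.00. The third, near background at 10.3 and 11.8 against 6.90 and 7.33, did not overlap between genotypes, with a change of -0.24 ± 0.26, but overlapped after median centring. The other Ikaros factors on the array used, Ikzf1, Ikzf3 and Ikzf5, had changes of 0.02, 0.45 and -0.23 on their brightest probe sets. Of these 3, 0 passed. The dimmer probe sets of Ikzf1 and Ikzf5 had the opposite sign, at -0.09 and 0.03.

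Surface receptors of Treg cells came next. Gpr83, a G protein-coupled receptor gene enriched in Treg cells, had the largest change in the gene fit among the members. Its brightest probe set read 144 and 184 in wildtype and 124 and 96.6 in the deficient arrays. The other read 117 and 98.1 against 74.5 and 64.6. On both, the deficient arrays lay below both wildtype arrays. The changes were -0.52 ± 0.25 (interval -1.12 to 0.08) and -0.54 ± 0.29 (interval -1.24 to 0.17), and each exceeded the gaps between replicate arrays, which were at most 0.32 and 0.22. Wildtype means were 1.49 and 1.55 times the deficient means in signal. Neither passed the test (adjusted p = 0.950 for each). In the gene fit the change lay between -0.68 and -0.36 when 1 array was left out. Gpr83 was the 1 member whose change exceeded both replicate gaps on every probe set.

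Nrp1 encodes neuropilin-1, a co-receptor for semaphorins and VEGF that marks thymus-derived Treg cells and is also found on plasmacytoid dendritic cells. Its brightest probe set read 623 and 651 in wildtype and 526 and 613 in the deficient arrays. Deficient replicate 2 lay close to the wildtype arrays here, and deficient replicate 1 was low. The same array was the lowest of the 4 on the other Nrp1 probe sets, at 353, 155 and 62.4. There deficient replicate 2 read 459, 241 and 83.3, beside wildtype values of 483 and 450.4, of 282 and 219, and of 95.4 and 89.3. All 4 probe sets had a lower mean in the deficient arrays, with changes from -0.34 to -0.16 that did not exceed the larger replicate gap. For the brightest it was -0.16 ± 0.12 (interval -0.46 to 0.13). On 2 of the 4 both deficient arrays lay below both wildtype arrays, where 20.2% of all probe sets did so, and after median centring all 4 overlapped, where 12.6% lay lower without overlap. Of the dendritic cell markers, Siglech, which defines plasmacytoid cells, lay below the filter with Itgax, Xcr1 and Flt3. The markers with a probe set summed to 7636 and 9145 against 11736 and 12103. Of the 5 tested, H2-Aa and H2-Eb1 lay higher and passed. The other 3, Batf3, Ly75 and Zbtb46, lay lower, and the median change of the list was -0.04. B cell markers, described above, also lay higher in the deficient arrays. The part of B cells in the H2-Aa and H2-Eb1 signals was not tested.

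Itgae and Klrg1 are surface genes of effector-type Treg cells that are shared with CD8 T cells, and Klrg1 also with NK cells. Itgae encodes integrin alpha E (CD103), which pairs with the beta 7 chain and binds E-cadherin. Its brighter probe set is of a class that can match several transcripts. It read 60.1 and 61.8 in wildtype and 94.4 and 61.0 in the deficient arrays, and only deficient replicate 1 stood apart. On the other that array was instead the lowest, at 28.1, against 46.1 and 53.3 in wildtype and 52.5 in deficient replicate 2. The changes, 0.26 ± 0.35 and -0.26 ± 0.41, thus had opposite signs. Without deficient replicate 1 the brighter probe set gave 0.00.

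Klrg1, an inhibitory receptor that binds cadherins, read 90.0 and 65.1 in wildtype and 112 and 76.1 in the deficient arrays. The arrays overlapped, and the change was 0.23 ± 0.33 (interval -0.57 to 1.03), smaller than the larger replicate gap of 0.48. NK cell markers summed to 685 and 701 in wildtype and 1052 and 1477 in the deficient arrays; all 3 tested lay higher, 0 of them passed, and the defining Ncr1, with Klrb1b and Klra8, lay below the filter. CD8 markers, 2 of 2 tested with 0 passing, summed to 757 and 815 against 723 and 977. Cd8a read 49.6 and 48.1 in wildtype against 79.4 and 88.9 in the deficient arrays, and the brighter Cd8b1 read 707 and 767 against 644 and 888. The part of such cells in the Itgae and Klrg1 signals was not tested.

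Capg encodes an actin-capping protein of the gelsolin family, listed among Treg signature genes and abundant in macrophages. Its brightest probe set read 4416 and 5081 in wildtype and 4512 and 5288 in the deficient arrays. Replicates differed more than genotypes did. The change was 0.04 ± 0.12, and its interval of -0.24 to 0.33 was among the narrower ones here. The dimmer probe set, of a class that can share probes with other transcripts, read 287 and 313 against 237 and 233. It did not overlap between genotypes, with a change of -0.33 ± 0.15 (interval -0.70 to 0.03, adjusted p = 0.948). The Capg probe sets therefore differed in sign, and their mean in the gene fit gave -0.14 (adjusted p = 0.924). Macrophage markers summed to 578 and 570.1 in wildtype and 471 and 545 in the deficient arrays; of 5 tested 0 passed, and Itgam, Cd14 and Mrc1 lay below the filter.

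Tgfb1 encodes the cytokine TGF-beta 1, and Lrrc32 the Treg surface protein GARP that tethers its latent form. The brighter Tgfb1 probe set read 1023 and 1039 in wildtype and 867 and 833 in the deficient arrays. Both deficient arrays were low, and both pairs of replicates were close, with gaps of 0.02 and 0.06. The change was -0.27 ± 0.10 (interval -0.51 to -0.04), and wildtype signal was on average 1.21 times the deficient signal. This was the 1 member probe set with an unadjusted p below 0.05 (adjusted p = 0.887, limma), and with median centring, without the intensity trend or with any 1 array left out its unadjusted p was above that level. Leaving out 1 array moved the change between -0.30 and -0.25, and quantile normalization gave -0.26 and median centring -0.19, each time without overlap between genotypes. The dimmer probe set read 95.7 and 89.5 against 93.6 and 45.9, where deficient replicate 2 alone was low, a change of -0.40 ± 0.38.

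**Figure D2:**
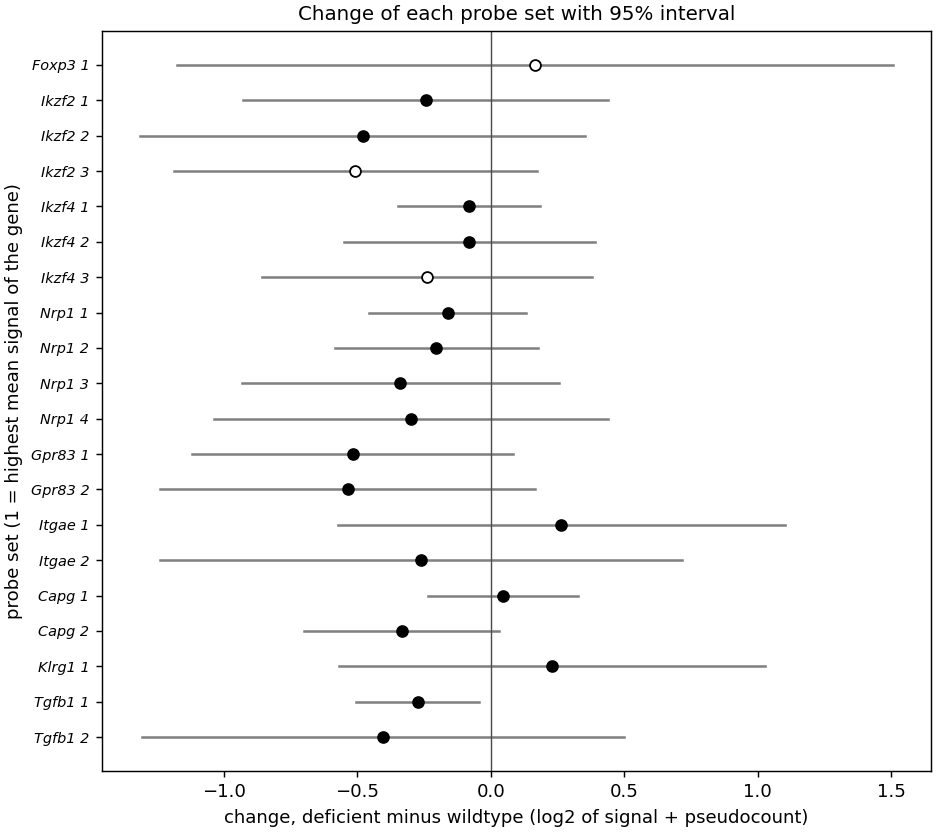
Change of each of the 20 probe sets (deficient minus wildtype, log2 of signal + 14.7, points) with its 95% interval from the fit of all probe sets (bars); open points lie below the filter, and probe sets of a gene are numbered by mean signal. All intervals reach across 0 except that of the brighter Tgfb1 probe set, from -0.51 to -0.04, and the Foxp3 interval, -1.18 to 1.51, is the widest.

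Of the 20 member probe sets, 16 had a lower mean in the deficient arrays, where 56% of all probe sets did. The count was 16 after quantile normalization (50.8% of all) and 14 after median centring (42.3% of all). On 9 of the 20 both deficient arrays lay below both wildtype arrays, where 20.2% of all probe sets did, and on 0 of the 20 above them, where 13.5% did. After quantile normalization these counts were 9 and 1, beside 16.8% and 16.5% of all probe sets. After median centring they were 6 and 1, beside 12.6% and 20.2%, the 1 being the brighter Itgae probe set each time. The median change over the members was -0.25, beside -0.04 over all probe sets. Without deficient replicate 1 it was -0.09, the largest move when an array was left out, with 15 of 20 still lower. The 20 are not independent, since Nrp1 has 4 probe sets and Ikzf2 and Ikzf4 have 3 each. By gene, 5 of the 9 (Ikzf2, Ikzf4, Nrp1, Gpr83 and Tgfb1) had every probe set lower in mean; for Gpr83 and Nrp1 this held under every alternative of that fit. It was lost for Ikzf4 with median centring and without deficient replicate 1, for Ikzf2 and Ikzf4 without wildtype replicate 2 (0.23 and 0.15 on 1 probe set each), and for Tgfb1 without deficient replicate 2 (0.01 on the dimmer).

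Changes were set against the gaps between replicate arrays. On 7 of the 20 probe sets the change exceeded the gap in both genotypes, all of them lower, where 12.4% of all probe sets were lower by more than both gaps. These were the dimmer pair of Ikzf2, the dimmest of Ikzf4, both of Gpr83, the dimmer of Capg and the brighter of Tgfb1. For the brightest probe sets of Ikzf2, Ikzf4, Nrp1 and Capg the gap was the larger.

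**Figure D3:**
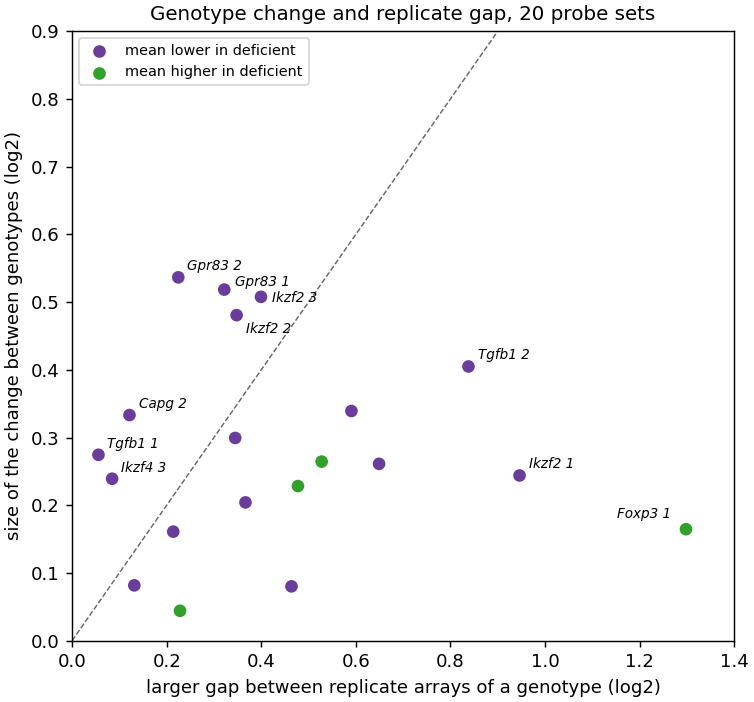
Size of the change between genotypes (log2, y axis) against the larger of the gaps between replicate arrays (log2, x axis) for the 20 probe sets, coloured by the direction of the mean; on the dashed line both are equal. The 7 probe sets above the line are all lower in the deficient arrays, and Foxp3, with a gap of 1.30, lies farthest below it.

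Lists of other genes of the same pathways gave 0 calls as well. Of 20 further Treg surface and effector genes, 19 were tested; 11 lay higher, 8 lower and 0 passed, with a median change of 0.14 beside -0.01 over all 12821 genes. Changes on that list ran from -0.70 to 0.67. The 3 with the smallest p all lay among the 11 higher. They were Cd27, a costimulatory receptor, Icos, another costimulatory receptor, and Lag3, an inhibitory receptor. Their changes were 0.53 ± 0.17, 0.33 ± 0.11 and 0.59 ± 0.24 (adjusted p = 0.642, 0.688 and 0.909, limma). The dimmer Icos probe sets had 0.09 and 0.13, and on each the arrays overlapped between genotypes. The single Lag3 probe set, at 521 and 782 in wildtype against 775 and 1208 in the deficient arrays, overlapped as well. Quantile normalization gave that list a median of 0.19 and median centring one of 0.23; the latter moved the median over all genes from -0.01 to 0.07.

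Among 24 regulators and partners of Foxp3, 23 were tested. Of these 4 lay higher, 19 lower and 0 passed, with a median of -0.08, where 52.5% of all genes tested lay lower. Quantile normalization left 19 lower, with a median of -0.09. After median centring 12 lay higher and 11 lower, with a median of 0.01. That setting put 8465 of all 12821 genes higher, with a median of 0.07. Gata3, the Th2 regulator that also acts in Treg cells, Runx1, a partner of Foxp3, and Tet2, a DNA demethylase acting on the Foxp3 gene, had changes of -0.34 ± 0.09, -0.48 ± 0.20 and -0.31 ± 0.13 (adjusted p = 0.416, 0.909 and 0.932, limma). Tet3 lay below the filter.

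Around Tgfb1 and Lrrc32, 20 of 24 TGF-beta pathway genes were tested, of which 8 lay higher, 12 lower and 0 passed, with a median of -0.05. Quantile normalization left 12 lower. After median centring 11 lay higher, with a median of 0.04, where 8465 of all 12821 genes lay higher, with a median of 0.07. Ski, a repressor of Smad signalling, had -0.38 ± 0.14, and the signal transducers Smad2 and Smad3, which the Foxp3 list also holds, had 0.26 ± 0.11 and -0.29 ± 0.16 (adjusted p = 0.846, 0.942 and 0.958, limma). Of 3 Smad3 probe sets 2 lay lower and 1 higher, with changes from -0.29 to 0.19. The ligand Tgfb2, the latency protein Ltbp1 and the activating integrin chains Itgb6 and Itgb8 lay below the filter.

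The smaller lists held the partners of single members. Itgb7, the chain that pairs with Itgae, read 1175 and 1740.4 in wildtype and 1293 and 1463 in the deficient arrays, with a change of -0.06 ± 0.18. Its alternative partner Itga4 had 0.07 on its brightest probe set, and the integrin chain Itgb1 had -0.06. Over all their probe sets Itga4 ran from -0.20 to 0.39 and Itgb1 from -0.67 to 0.46. Of 6 Itgb1 probe sets 1 lay lower and 1 higher without overlap, where 20.2% and 13.5% of all probe sets did. The cadherin ligands Cdh1 and Cdh2 lay below the filter. Of 8 neuropilin ligands and co-receptors tested, 7 lay lower and 0 passed, where 52.5% of all genes tested lay lower. After quantile normalization 4 lay lower, where 6339 of all 12821 genes did. After median centring 3 lay lower, where 4356 of all genes did. Plxna3, Sema4a and Kdr had -0.42, -0.33 and -0.09 on their brightest probe sets. The dimmer probe sets of Plxna3 and Sema4a had the opposite sign, at 0.27 and 0.16. In the gelsolin family 3 of 6 tested lay higher, 3 lower and 0 passed, with Vill, Scin and Gsn at -0.45, 0.63 and -0.23.

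**Figure D4:**
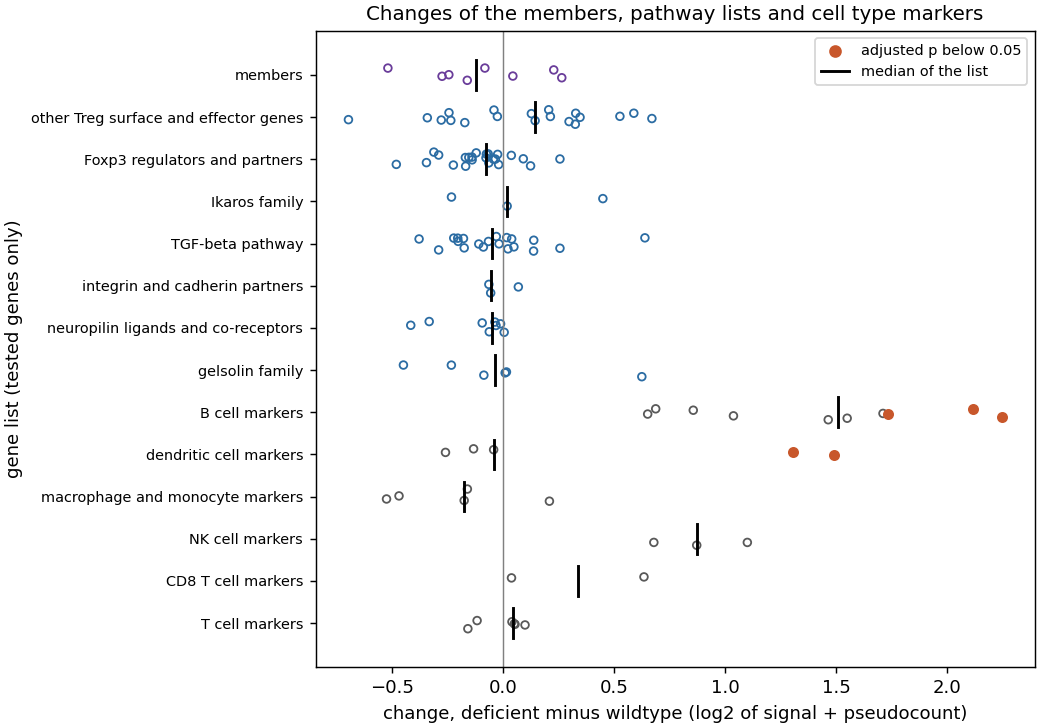
Changes (deficient minus wildtype, log2 of signal + 14.7) of the tested genes of each list, 1 point a gene at its brightest probe set, with the list's median as a black bar; filled orange points passed an adjusted p of 0.05. The 8 tested members lie between -0.52 and 0.26 with a median of -0.12, none is filled, and of the lists shown, only those of B cell and dendritic cell markers hold filled points.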

How the data were processed

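RNA of 4 samples was hybridised to Mouse Genome 430 2.0 arrays, labelled from 100 ng of total RNA per the labels. For each array the authors deposited 1 linear intensity per probe set. MAS5 and Transcriptome Analysis Console stand in the submitters' processing notes without a version. The deposited values have a 2% trimmed mean of 500 on every array. Scanner files and detection calls were not analysed here, and batches are not given in the sources used here.

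Of 45101 probe sets, 64 controls were left out; 34945 have 1 gene symbol, 932 several and 9160 none in the platform annotation. Signals were taken as log2(signal + 14.7), the constant being their 25th percentile. The gene fit took the probe set with the highest mean per gene, if its mean log2 reached the 40th percentile (5.48). The other fit took every probe set. Both used limma 3.58.1 in R 4.3.3 (lmFit, eBayes with intensity trend, two-sided, Benjamini-Hochberg), and were tested on simulated data. An exact permutation test of 2 against 2 arrays cannot go below 0.333. The number of arrays limits the precision.

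Members and lists were chosen with earlier results of these data known. Named were all members, and of each pathway list up to 3 tested genes with the smallest p. Alternatives covered the constant, filter, scaling, probe set choice, variance prior, replicate number and each array left out. Figures were drawn with matplotlib 3.10.9.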

Additional observations from a re-analysis of the deposited data

How the results depend on the processing

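No member and no member probe set passed an adjusted p of 0.05 in limma under any of the alternatives run, 13 for genes and 11 for probe sets. Of 113 member changes recomputed, 105 kept their direction and 8 turned. The 105 include settings that leave a change as it is and could not turn it: another filter, no intensity trend and the replicate block. With median centring Ikzf4 was at 0.00131, and with the mean of its probe sets Capg was at -0.14; the other turns came from leaving out 1 array, where the changes ranged from -0.48 to 0.81 for Foxp3, from -0.72 to 0.23 for Ikzf2, from -0.070 to 0.16 for Capg and from -0.0105 to 0.47 for Klrg1. The lowest adjusted p of a member was 0.0681 (Ikzf2 without wildtype replicate 1, with 1 wildtype array left and 1 residual degree of freedom). Over all genes, 23 passed in the fit reported, 2 without a filter, 51 with median centring, 14 with the mean of probe sets and 0 without the intensity trend (769 with an unadjusted p below 0.05). Leaving out 1 array gave 16 to 100, of which 67 were higher and 33 lower without wildtype replicate 1, against 22 and 1. The cause was not tested. With the replicate number as a block 14 genes passed and 0 members; deviations of same-numbered arrays correlated at 0.05 across genes, so the numbers are not taken as pairing. Signals near background limit Foxp3 and the dimmest Ikzf2 and Ikzf4 probe sets.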

Other observations

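The partner gene Runx1 and the gelsolin gene Gsn were looked at on all their probe sets after their values were seen. All 6 Runx1 probe sets had a lower mean in the deficient arrays, 5 of 6 after median centring, with changes from -1.51 to -0.07. The brightest read 197 and 199.8 in the wildtype arrays against 140.5 and 136 in the deficient arrays. The dimmest read 107 and 80.0 against 18.6 and 28.2, a change of -1.51 ± 0.38 (adjusted p = 0.823 in limma's fit of all probe sets). Gsn, which encodes gelsolin, had a lower mean on 5 of 6 probe sets. On 2 of the 6 the deficient arrays lay lower without overlap, where 20.2% of all probe sets did. The brightest had -0.23 ± 0.14 and the next -0.47 ± 0.12 (adjusted p = 0.950 and 0.823 in limma's fit of all probe sets). Both are of the class that can share probes with other transcripts. A bright probe set outside that class read 2166 and 2582 against 2228 and 1982, a change of -0.17 ± 0.12. The 1 probe set with a higher mean read between 2.40 and 16.6.

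The Ikaros factor gene Ikzf3, which encodes Aiolos and is used by B cells as well as T cells, had higher signals in both deficient arrays on all 3 of its probe sets, where 13.5% of all probe sets lay higher without overlap; 1 of the 3, at 2.06 to 6.98, lay below the filter. The brightest read 530 and 724 in the wildtype arrays against 850.2 and 852 in the deficient arrays. Its change was 0.45 ± 0.16 (adjusted p = 0.887 in limma's fit of all probe sets). B cell markers, all 10 tested, had changes from 0.65 to 2.25 in the same arrays; their part in the Ikzf3 signal was not tested.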
